A study of Mus musculus with 29 samples.

Results

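Hearts of mice with a germline knockout of protein kinase C epsilon (PKCε, encoded by Prkce) were compared with wild-type hearts 4 weeks into transverse aortic constriction (TAC), an operation in which a tie around the aortic arch makes the left ventricle pump against raised pressure. The comparison used 8 of the 29 libraries in the series, 4 labelled PKCε knockout after TAC and 4 labelled wild type after TAC, chosen by their titles, and all 13765 of 23420 listed genes that passed a filter on low counts. The series also holds unstressed hearts of both genotypes (3 PKCε and 4 wild type) and hearts with PKCδ ablated after birth in the heart, alone or together with the PKCε knockout. All animals were C57BL/6J and were labelled 12 weeks old, including those taken after TAC. The tissue label reads whole heart, while the protocol describes frozen ventricular apexes, from which polyadenylated RNA was sequenced without strand information. The knockout is germline, so all cells of the heart and body carry it, not cardiomyocytes alone. The 4 PKCε TAC libraries were labelled male, as were wild-type TAC replicates 1 to 3, and wild-type TAC replicate 4 was labelled female. All unstressed libraries of the series were labelled male. After TAC, PKCδ replicates 2 and 3 and combined replicates 1, 2 and 4 were labelled female, and the rest of those groups male. The labels name unstressed and not sham-operated hearts, so unstressed animals are no control for the operation.

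PKCε is a calcium-independent protein kinase C isoform that diacylglycerol activates downstream of Gq-coupled receptors, such as those for angiotensin II, endothelin and catecholamines. In cardiomyocytes it moves on activation to the Z-disc, the intercalated disc and mitochondria, and it is known for roles in hypertrophic growth and in protection from ischaemia. Pressure overload is known to raise fetal genes such as Nppa, Nppb, Myh7 and Acta1, to raise matrix genes and to lower genes of calcium handling and fatty acid oxidation. The comparison asks which of these levels, and which others, differed between overloaded hearts with and without PKCε.

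The 8 libraries held 12246814 to 17314739 counts in genes. Values are given as CPM, counts per 1e6 scaled between libraries by the trimmed mean of M-values, and differences as log2 fold changes of PKCε over wild type ± SE. Genes are named as called where edgeR's quasi-likelihood test gave an adjusted p below 0.05. The p-values measure the spread between libraries, since nothing in the labels ties a library to an animal beyond its title. Wild-type TAC replicate 2 stood apart in Prkce and Myh2. It held 24.0 CPM of Prkce, the lowest of the 4 wild-type TAC libraries, and 10.2 CPM of Myh2, the highest of the 4. Across genes with mean log2 CPM of 2 or more, another library lay furthest out on the main axis of variation (principal component 1, 29.6% of the variance). PKCε replicate 4 was at 21.4 on it, against -2.48 to 7.78 in the other PKCε libraries and -10.6 to -4.35 in wild type. The genotypes did not overlap there. On principal component 2 (19.3%) wild-type replicate 2 was at 13.9, against -11.7 to 7.16 in the others. Calls that change without wild-type replicate 2, and larger differences that it moves by over 1.5 times, are given with and without it. Xist, which is made from the inactive X of females, was found in all 8 libraries at 7.65 to 119.2 CPM. Of the 8, 6 also held the Y-linked transcript Ddx3y, though PKCε replicate 2 held only 1.77 CPM of it, with Xist at 114.7 CPM. Ddx3y, which is Y-linked, was at 0 CPM in PKCε replicate 1 and wild-type replicate 3, both labelled male, and at 15.7 CPM in wild-type replicate 4, labelled female. These libraries thus go against their sex labels. Whether libraries pool hearts of both sexes was not tested. The sex label was not a term of the test, and alternatives that use it rest on these labels.

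After TAC, 6 of 13765 genes were called between the genotypes (0.0436%). Wdr92, Tirap and 2610507I01Rik were higher in PKCε hearts (0.0218%), and Prkce, C1qa and Pdgfrb were lower (0.0218%). At an unadjusted p below 0.05 there were 867 genes higher (6.30%) and 686 lower (4.98%). In 479 genes every PKCε library lay above every wild-type library (3.48%), and in 457 every one lay below (3.32%). The counts in gene lists below are to be read beside these shares over all genes. The median SE of a log2 fold change was 0.125. DESeq2 called 54 genes on the same counts, 27 higher and 27 lower, among them all 6. With male-labelled libraries alone 46 were called, 32 higher and 14 lower, among them 5 of the 6, and with 1 library left out 2 to 12.

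Prkce itself (chromosome 17, 86167785 to 86657919 in GRCm38.p6) had 10.8, 7.25, 10.6 and 9.17 CPM in PKCε TAC hearts, against 40.4, 24.0, 33.3 and 42.9 CPM in wild-type TAC hearts. The groups did not overlap, and wild-type replicate 2 was the wild-type library nearest to the knockout. The log2 fold change was -1.90 ± 0.279 (adjusted p = 0.00545), and without wild-type replicate 2 it was -2.04 (adjusted p = 0.00156). Transcripts thus remained in the knockout at about the level of unstressed PKCε hearts, which held 8.41 ± 0.78 CPM (SD, n = 3). The labels do not say which exons were deleted. No other gene of the 15 PKC and PKD kinases was called. Prkcd, the other isoform ablated in the series, held 24.7 ± 0.919 CPM in PKCε and 23.1 ± 3.51 CPM in wild-type TAC hearts (SD, n = 4 each; log2 fold change 0.10 with a 95% interval of -0.14 to 0.33). Prkca, a calcium-dependent isoform of the heart, differed by 0.15 ± 0.0795 (adjusted p = 0.487). Prkd2, a protein kinase D that PKCs phosphorylate, had 44.3, 44.1, 42.1 and 44.2 CPM in PKCε hearts, against 50.9, 56.4, 49.3 and 47.4 CPM in wild type. These groups did not overlap, yet the gene was not called (-0.22 ± 0.0955, adjusted p = 0.370).

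Wdr92 showed the largest called difference. It encodes a WD-repeat protein known as a subunit of a prefoldin-like co-chaperone complex. It had 79.9, 86.6, 118 and 222 CPM in PKCε TAC hearts, against 15.5, 28.4, 22.7 and 14.8 CPM in wild-type TAC hearts. Every PKCε library lay above the highest wild-type library, and PKCε replicate 4 was far above the other 3. The log2 fold change was 2.63 ± 0.342 (adjusted p = 0.00191), and the call held in each of the 8 fits that left out 1 library (2.22 to 2.83). With only the 8 libraries in the fit the difference was 2.63 and the adjusted p was 0.157. Of its exonic bases 19.8% overlap exons of another gene, and reads of overlapping genes cannot be told apart without strand. The gene was also called in unstressed hearts, with 72.1, 77.2 and 36.3 CPM in PKCε hearts, against 14.6, 12.3, 20.8 and 14.6 CPM in wild type (2.0 ± 0.371, adjusted p = 0.00425).

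The 3 genes called higher are shown here by the 200 bases that lie from 250 to 51 bases before the transcription start, taken from RefSeq for GRCm38.p6 and read 5′ to 3′ on the strand of the gene. They were searched on both strands for 4 motifs known from promoters of cardiac and stress genes. These were the MCAT element, spelled CATTCC here, the AP-1 site with the letters TGANTCA, the palindromic E-box written as CACGTG and the CCAAT box. Wdr92 lies on the plus strand at chr11:17211643-17211842, Tirap on the minus strand at chr9:35200016-35200215 and 2610507I01Rik on the minus strand at chr11:59202482-59202681.
Wdr92: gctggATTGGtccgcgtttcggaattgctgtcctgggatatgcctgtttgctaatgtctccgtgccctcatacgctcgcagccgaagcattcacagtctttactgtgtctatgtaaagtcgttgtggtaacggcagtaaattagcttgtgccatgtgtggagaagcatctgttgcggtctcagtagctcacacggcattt
Tirap: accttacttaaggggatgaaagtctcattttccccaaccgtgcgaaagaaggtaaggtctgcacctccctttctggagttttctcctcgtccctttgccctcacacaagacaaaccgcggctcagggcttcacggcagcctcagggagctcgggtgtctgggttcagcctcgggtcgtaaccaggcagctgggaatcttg
2610507I01Rik: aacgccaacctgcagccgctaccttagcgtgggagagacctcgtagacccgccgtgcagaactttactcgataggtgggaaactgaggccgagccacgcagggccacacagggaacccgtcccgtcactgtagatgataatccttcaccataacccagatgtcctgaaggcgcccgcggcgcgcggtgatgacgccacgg
The capitals mark the only match, a CCAAT motif on the opposite strand of Wdr92. Of 32851 windows of this length in the table, 28.4% hold CCAAT, 10.7% MCAT, 5.57% AP-1 and 4.34% the E-box. A match is a description of the letters and does not show binding. Tirap has 2 start sites in the table, and the one listed first is shown. Its window lies inside the span of the gene (35184391 to 35200291), so it is not the window before the outermost start.

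Tirap encodes an adaptor that couples Toll-like receptors to MyD88. It had 12.8, 13.3, 15.4 and 13.3 CPM in PKCε TAC hearts, against 9.53, 7.78, 9.91 and 8.36 CPM in wild-type TAC hearts. The groups did not overlap, and the difference was 0.62 ± 0.115 (adjusted p = 0.0322). The call held in 2 of the 8 fits without 1 library, those without PKCε replicate 1 or wild-type replicate 3, with values of 0.56 to 0.68. Without wild-type replicate 2 the difference was 0.56 and was not called (adjusted p = 0.0856). 2610507I01Rik, a gene with no assigned function in the files, had 8.45, 5.48, 10.3 and 11.1 CPM in PKCε hearts, against 2.28, 6.38, 2.14 and 1.74 CPM in wild type. Wild-type replicate 2 overlapped the PKCε libraries, while the other 3 wild-type libraries lay well below them. The difference was 1.47 ± 0.271 (adjusted p = 0.0328). It was 2.09 without wild-type replicate 2 (adjusted p = 5.42e-06), and the call held in 3 of the 8 fits without 1 library, that one and those without PKCε replicate 1 or 2. Neither gene was called in unstressed hearts, at 0.23 ± 0.123 for Tirap and -0.14 ± 0.314 for 2610507I01Rik. With all libraries, the change of these differences between TAC and unstressed hearts was not called for either (adjusted p = 0.554 and 0.155). Without wild-type replicate 2 that change was called for 2610507I01Rik (2.23, adjusted p = 0.00144) and not for Tirap (0.33, adjusted p = 0.735).

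**Figure D1:**
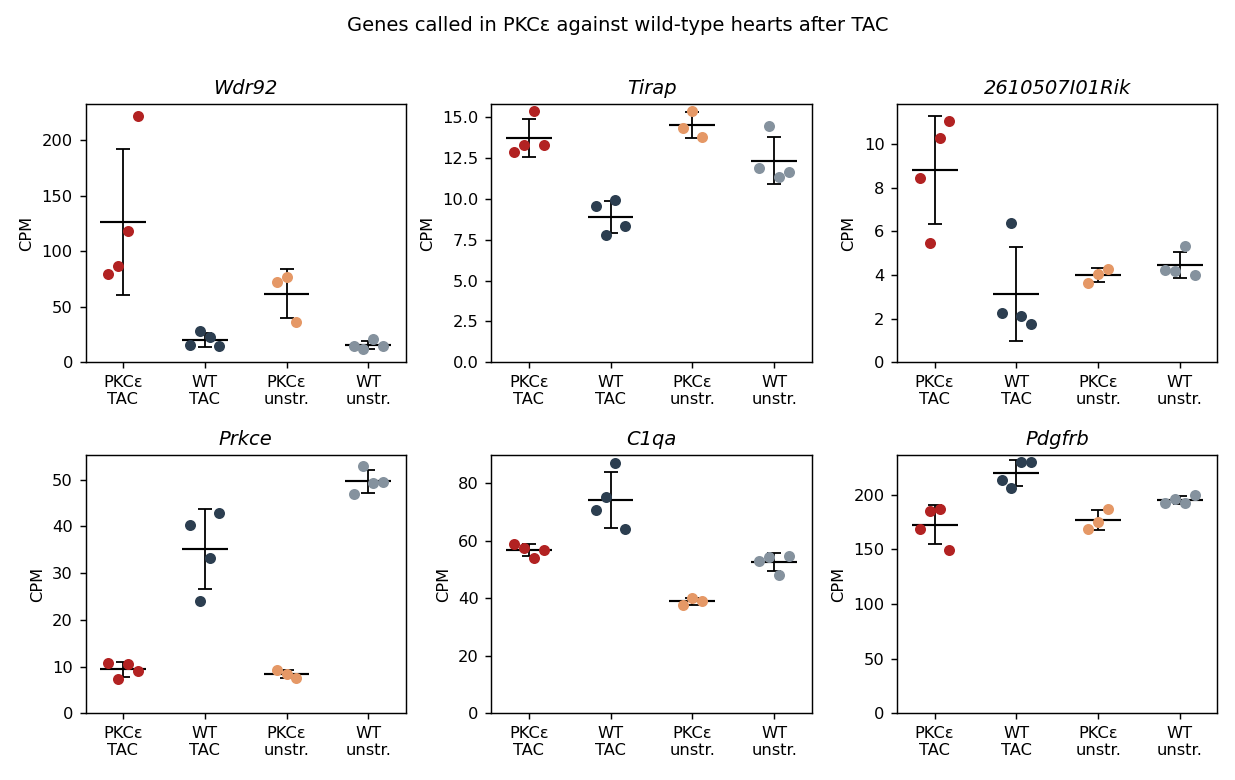
CPM per library of the 6 called genes, with PKCε and wild-type (WT) hearts after TAC on the left of each panel and unstressed (unstr.) hearts on the right. Points are libraries, horizontal bars the mean and whiskers the SD. Groups after TAC are separate for all but 2610507I01Rik, where wild-type replicate 2 at 6.38 CPM lies among the PKCε libraries.

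C1qa encodes a chain of C1q, the first component of the complement cascade, which tissue macrophages make. It had 58.8, 57.4, 54.1 and 56.9 CPM in PKCε TAC hearts, against 70.6, 75.2, 87.1 and 63.9 CPM in wild-type TAC hearts. The groups did not overlap, and the PKCε libraries varied little. The difference was -0.39 ± 0.0749 (adjusted p = 0.0423), and 6 of the 8 fits without 1 library ended the call, all but those without PKCε replicate 1 or wild-type replicate 4 (-0.45 to -0.30; without wild-type replicate 2, adjusted p = 0.0786). C1qa was also lower in unstressed PKCε hearts (-0.44 ± 0.0846, adjusted p = 0.00340). The other chains lay close to it: C1qb differed by -0.35 ± 0.0817 and C1qc by -0.36 ± 0.0861, both without overlap between the groups and both not called (adjusted p = 0.109 each). The 3 genes are neighbours on chromosome 4.

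Most other macrophage genes also had differences below 0. Of 27 tested macrophage and monocyte markers, 23 had a log2 fold change below 0 and 4 above. C1qa alone was called, 10 were lower at an unadjusted p below 0.05 (against 4.98% of all genes) and 0 were higher. In 4 every PKCε library lay below every wild-type library (against 3.32% of all genes). The median was -0.28, against 0.0026 over all genes tested, and -0.06 for the same markers in unstressed hearts. Laptm5, a lysosomal membrane protein of white blood cells, had 36.7, 33.9, 40.1 and 36.3 CPM in PKCε hearts, against 43.1, 46.9, 63.7 and 44.6 CPM in wild type (-0.43 ± 0.103, adjusted p = 0.109). Csf1r, the receptor macrophages need to survive, differed by -0.22 ± 0.0781 and Lgals3, the galectin of activated macrophages, by -0.76 ± 0.25 (adjusted p = 0.275 and 0.238). Timd4, a marker of resident macrophages, lay at 0.46 ± 0.280 (adjusted p = 0.540).

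Summed over the 27 markers, the level was 569, 595.4, 621.6 and 602.2 CPM in PKCε TAC hearts, against 667.3, 678.1, 943.5 and 646.1 CPM in wild-type TAC hearts. The sums did not overlap, and wild-type replicate 3 was far above the rest, with the highest value of the 8 libraries in 20 of the 27 genes. In the fits without 1 library the list median lay between -0.34 and -0.14. In unstressed hearts the sums were 498, 525.7 and 453 CPM in PKCε hearts, against 583.7, 536, 534.7 and 596.2 CPM in wild type, also without overlap. In these bulk samples, fewer macrophages and less RNA per macrophage cannot be told apart.

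Pdgfrb (chromosome 18, 61045127 to 61085067) encodes the PDGF receptor beta of pericytes and fibroblasts. It had 169, 186, 187 and 150 CPM in PKCε TAC hearts, against 214, 206, 230 and 230 CPM in wild-type TAC hearts. The groups did not overlap, and the difference was -0.35 ± 0.0685 (adjusted p = 0.0461). The call held in 2 of the 8 fits without 1 library, those without PKCε replicate 3 or wild-type replicate 2 (-0.39 to -0.28), and ended with the sex label in the model (-0.32, adjusted p = 0.0976). Of 9 alternative settings, that one included, 5 kept the call, and the highest adjusted p was 0.157. Of 14 pericyte and smooth muscle markers, 4 were lower at an unadjusted p below 0.05 (against 4.98% of all genes) and 0 higher. In all, 12 lay below 0, and the median was -0.13, against -0.16 for the same markers in unstressed hearts. The median after TAC ran from -0.23 without wild-type replicate 1 to -0.08 without PKCε replicate 2 over the 8 fits without 1 library. Kcnj8, a subunit of the ATP-sensitive potassium channel of pericytes, had 31.4, 33.7, 35.9 and 24.8 CPM in PKCε hearts, against 41.4, 37.1, 42.2 and 49.2 CPM in wild type (-0.43 ± 0.105, adjusted p = 0.109). Notch3, which mural cells need, differed by -0.25 ± 0.0851 (adjusted p = 0.245). Abcc9, the partner of Kcnj8 in that channel, differed by 0.07 ± 0.101, and it is also expressed by cardiomyocytes. Summed over the 14 markers, the level was 5196 to 6994 CPM in PKCε hearts, against 5850 to 6469 CPM in wild type, and these sums overlapped. Most of that sum is Des, which cardiomyocytes express too.

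**Figure D2:**
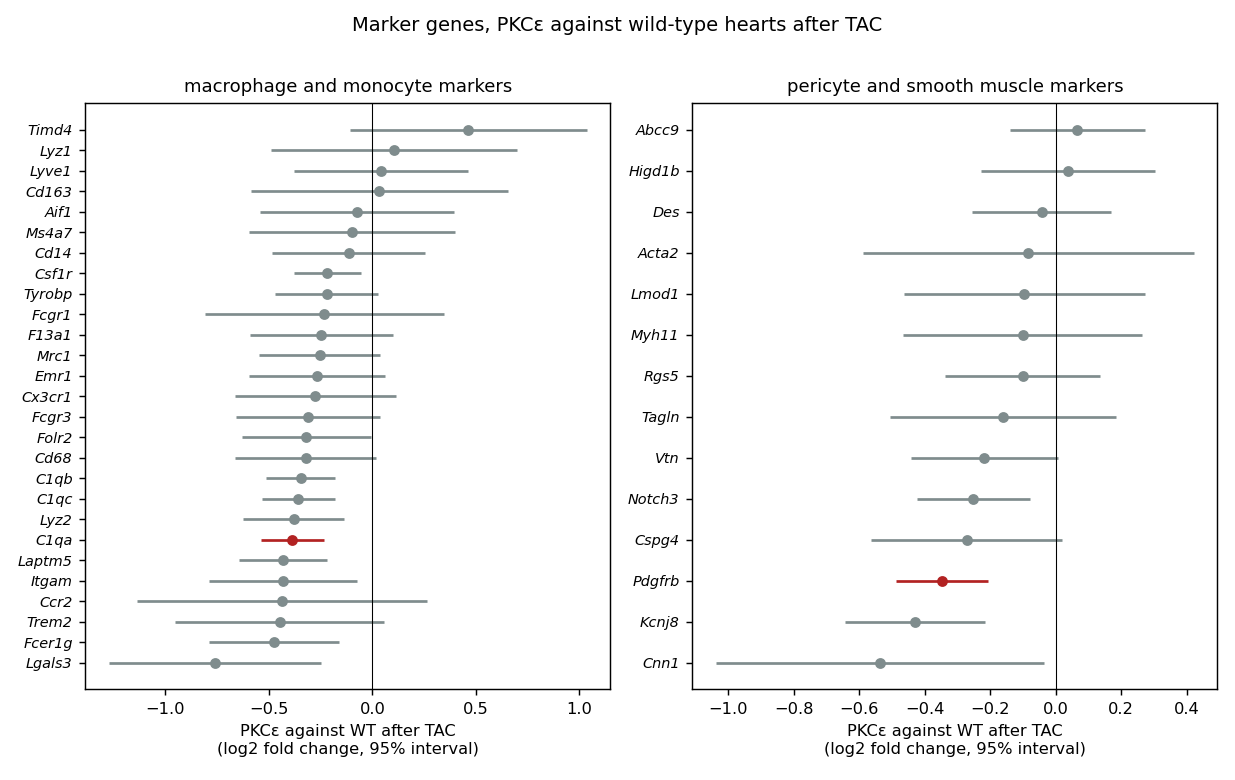
Log2 fold changes of PKCε over wild-type hearts after TAC for 27 macrophage and monocyte markers (left) and 14 pericyte and smooth muscle markers (right), with 95% intervals. Red marks the called genes, C1qa and Pdgfrb. Points lie left of 0 for 23 of the 27 and 12 of the 14 genes.

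The other cell type lists held no called gene. Fibroblast markers had a median of -0.01 with 0 of 19 past an unadjusted p of 0.05, and endothelial markers one of -0.09 with 2 of 20 lower. Of these 20 endothelial markers 16 lay below 0. In unstressed hearts their median was -0.21, with 5 called lower (against 1.47% of all genes). Ventricular myocyte markers had a median of 0.05, with summed levels of 124600 to 143400 CPM in PKCε hearts and 120100 to 144800 CPM in wild-type hearts. Of 11 erythroid and platelet markers the haemoglobin genes Hbb-b1, Hbb-b2, Hba-a1 and Hba-a2 were at 0 in all 8 libraries. The 5 that could be tested had a median of 0.50, with 2 higher at an unadjusted p below 0.05. Alas2, the haem synthesis enzyme of red cell precursors, had 42.7, 21.6, 17.4 and 21.3 CPM in PKCε hearts, against 18.9, 22.6, 18.4 and 13.02 CPM in wild type (0.50 ± 0.225, adjusted p = 0.402). Its groups overlapped, with PKCε replicate 1 the highest. Atrial markers had a median of -0.04, with 6 of the 12 tested above 0 and 6 below. Their summed level spread from 1274 to 5357 CPM in PKCε hearts, against 1600 to 2509 CPM in wild type. Most of that sum is Nppa, an overload gene described below, at 1195 to 5275 CPM in PKCε hearts. Myl4 and Sln, also described below, lay lower in PKCε hearts.

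Just outside the threshold stood Hfe, Gnpat, Ppp1r3b and Myl4, all without overlap between the groups. Hfe, the haemochromatosis protein that restrains iron uptake, had 17.5, 16.2, 16.1 and 11.9 CPM in PKCε hearts, against 25, 18.4, 27.8 and 25.1 CPM in wild type (-0.64 ± 0.129, adjusted p = 0.0558). It was called without wild-type replicate 2 (-0.75, adjusted p = 0.00777) and in unstressed hearts (-0.53 ± 0.145, adjusted p = 0.0389). Gnpat, the first enzyme of ether lipid synthesis in peroxisomes, had 216, 216, 222 and 222 CPM in PKCε hearts, against 181, 180, 180 and 199 CPM in wild type (0.25 ± 0.0509, adjusted p = 0.0666). Ppp1r3b, which targets protein phosphatase 1 to glycogen, had 22.7, 21.8, 20.6 and 18.6 CPM in PKCε hearts, against 14.9, 12.5, 15.4 and 15.5 CPM in wild type (0.53 ± 0.113, adjusted p = 0.0916). Myl4, the myosin light chain of the atrium and the fetal ventricle, had 3.37, 3.05, 2.0 and 2.39 CPM in PKCε hearts, against 11.5, 12.9, 4.14 and 8.36 CPM in wild type (-1.76 ± 0.367, adjusted p = 0.102). Sln, the atrial regulator of the calcium pump, had 1 count in all 4 PKCε libraries together and 54 in the 4 wild-type ones, a ratio of 0.0181 with a 95% interval for counting error of 0.00045 to 0.105. In CPM it was 0, 0, 0 and 0.0797 in PKCε hearts, against 1.14, 1.66, 0.13 and 0.627 in wild type, and its adjusted p was 0.140.

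None of the markers by which overloaded hearts are usually graded was called. Nppa, which encodes atrial natriuretic peptide, had 5275, 1559, 2515 and 1195 CPM in PKCε hearts, against 1976, 1513, 2425 and 1714 CPM in wild type. The groups overlapped, with PKCε replicate 1 far above all others, and the 95% interval ran from -0.39 to 1.32. Without PKCε replicate 1 the sign turned (-0.12). Exons of other genes cover 61.5% of its exonic bases, so its counts are uncertain. Nppb, the B-type peptide gene, had 559, 285, 569 and 412 CPM in PKCε hearts, against 366, 543, 347 and 351 CPM in wild type (0.18 ± 0.300, adjusted p = 0.871). Without wild-type replicate 2 its difference was 0.36 (adjusted p = 0.754), and without PKCε replicate 1 it was 0.07. Acta1, the skeletal actin of the fetal heart, had 6641, 4260, 3210 and 1906 CPM in PKCε hearts, against 8625, 6335, 3517 and 4836 CPM in wild type (-0.54 ± 0.398, adjusted p = 0.637). Ankrd1, a stretch-responsive titin-binding protein, differed by -0.16 ± 0.310 (adjusted p = 0.902). Over 30 stress and fetal genes the median was -0.06, with 2 higher and 3 lower at an unadjusted p below 0.05. These spreads leave wide intervals: for Acta1 the interval ran from -1.37 to 0.29, and for Nppb from -0.44 to 0.81.

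Among the heavy chains of myosin, Myh6, the adult isoform, differed by 0.07 ± 0.0762 (95% interval -0.09 to 0.22). Myh7, the slow fetal isoform, had 2850, 3824, 6173 and 3432 CPM in PKCε hearts, against 2029, 3863, 2342 and 938 CPM in wild type. PKCε libraries lay mostly higher, and wild-type replicate 2 was among them. The difference was 0.83 ± 0.348 (adjusted p = 0.372). Of 36 sarcomere genes 25 lay above 0, with a median of 0.03, and 0 were called.

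No calcium handling or channel gene was called, and the medians of the lists were 0.05 for 42 calcium handling genes and 0.15 for 32 potassium and sodium channel genes. Atp2a2, the calcium pump of the sarcoplasmic reticulum, had 7397, 9480, 8804 and 10433 CPM in PKCε hearts, against 7657, 7527, 7632 and 9114 CPM in wild type (0.18 ± 0.0925, adjusted p = 0.474). Its inhibitor Pln differed by 0.21 ± 0.123 and the release channel Ryr2 by 0.06 ± 0.0802 (95% interval -0.10 to 0.23). Of the exonic bases of Pln 64.7% overlap other genes. Slc8a1, the sodium-calcium exchanger, had 418, 400, 502 and 487 CPM in PKCε hearts, against 359, 335, 348 and 394 CPM in wild type. Its groups did not overlap, and it was not called (0.33 ± 0.0992, adjusted p = 0.190). Of the calcium handling genes 5 were higher and 3 lower at an unadjusted p below 0.05, with Sln, described above, the furthest from 0. Of the channel genes 5 were higher and 1 lower. Kcnj2, the inward rectifier that sets the resting potential, had 18.7, 23.4, 21.1 and 17.0 CPM in PKCε hearts, against 12.7, 14.5, 16.3 and 16.4 CPM in wild type. These groups did not overlap (0.43 ± 0.139, adjusted p = 0.235). Kcnj5, a subunit of the acetylcholine-activated channel, differed by 0.26 ± 0.0938 without overlap (adjusted p = 0.282).

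Of 23 intercalated disc genes, 17 lay above 0 with a median of 0.10, and 0 were called. At an unadjusted p below 0.05, 4 were higher and 1 lower (against 6.30% and 4.98% of all genes). Dsg2 and Dsc2 encode the cadherins of cardiac desmosomes. Dsg2 had 79.8, 90.8, 81.0 and 85.3 CPM in PKCε hearts, against 62.7, 62.2, 77.5 and 75.1 CPM in wild type (0.28 ± 0.0757, adjusted p = 0.148). Dsc2 differed by 0.31 ± 0.103 (adjusted p = 0.238), also without overlap. Ctnna3, the alpha-T-catenin that joins desmosomes and adherens junctions, differed by 0.27 ± 0.103 (adjusted p = 0.319).

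Most metabolic genes tested lay above 0 in PKCε over wild-type hearts, and none was called. Of 41 fatty acid oxidation genes 28 lay above 0 (median 0.05), and of 33 glucose and glycolysis genes 24 did (median 0.05). Of these 33, 7 were higher and 0 lower at an unadjusted p below 0.05 (against 6.30% and 4.98% of all genes). Lpl, the lipase that frees fatty acids from lipoproteins, had 2877, 3240, 3113 and 3455 CPM in PKCε hearts, against 2455, 2537, 2411 and 2829 CPM in wild type. The groups did not overlap (0.31 ± 0.0904, adjusted p = 0.186). Ppara, the nuclear receptor that drives fatty acid oxidation genes, differed by 0.25 ± 0.0761 (adjusted p = 0.202). Phka1, a subunit of phosphorylase kinase, and Ppp1r3a, the muscle glycogen-targeting subunit, lay higher without overlap, at 0.43 ± 0.160 and 0.42 ± 0.143 (adjusted p = 0.300 and 0.257). Pdk1, which inhibits pyruvate dehydrogenase, differed by 0.28 ± 0.0849 (adjusted p = 0.195), while Pdk4 was spread over 116 to 526 CPM in PKCε hearts and 188 to 404 CPM in wild type. Ppargc1a (0.13 ± 0.136) and Cpt1b (0.10 ± 0.123), the coactivator and the gate of mitochondrial fat oxidation, were close to 0, and 81.4% of the exonic bases of Cpt1b overlap another gene. For 76 nuclear-encoded respiratory chain genes the median was 0.03 with 6 higher and 1 lower at an unadjusted p below 0.05. Without wild-type replicate 2 it was 0.12 with 25 higher and 1 lower, and 0 were called.

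No matrix gene was called, and of 85 tested 1 lay higher and 2 lower without overlap between the groups (3.48% and 3.32% of all genes). Col1a1 had 742, 685, 511 and 414 CPM in PKCε hearts, against 674, 432, 874 and 515 CPM in wild type, and Col3a1 1111, 1048, 904 and 646 CPM, against 808, 655, 1695 and 805 CPM. Both groups overlapped fully, at -0.09 ± 0.232 and -0.10 ± 0.272, and for both the sign turned without PKCε replicate 4 or without wild-type replicate 3. Postn, the matricellular protein of activated fibroblasts, had 255, 131, 185 and 72.7 CPM in PKCε hearts, against 99.7, 53.4, 149 and 98.9 CPM in wild type (0.69 ± 0.361, adjusted p = 0.486). Ctgf, of which 23.2% of exonic bases overlap other genes, differed by 0.12 ± 0.376, and Fbln1, a fibulin of the interstitial matrix, by -0.45 ± 0.148 without overlap (adjusted p = 0.245). Of 85 matrix genes 2 were higher and 4 lower at an unadjusted p below 0.05, and the median was -0.04. Of 32 TGF-beta family ligands and receptors 3 were higher and 6 lower at an unadjusted p below 0.05 (against 6.30% and 4.98% of all genes). Bmpr1a, a type I receptor for bone morphogenetic proteins, had 30.9, 33.8, 28.8 and 34.8 CPM in PKCε hearts, against 21.5, 23.3, 24.5 and 28.3 CPM in wild type (0.39 ± 0.102, adjusted p = 0.131).

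Of 35 immediate early and ERK feedback genes 28 lay below 0 with a median of -0.13, and 0 were called. At an unadjusted p below 0.05, 10 were lower and 0 higher (against 4.98% and 6.30% of all genes). Without wild-type replicate 2, 3 were lower and the median was -0.09, and over the 8 fits without 1 library the median ran from -0.23 without wild-type replicate 3 to -0.08 without PKCε replicate 2. Egr3, a growth-response transcription factor, had 2.73, 1.94, 3.45 and 3.43 CPM in PKCε hearts, against 5.50, 23.2, 2.53 and 1.88 CPM in wild type. Klf2, a flow-responsive factor of endothelium, had 30.8, 18.7, 26 and 20.7 CPM in PKCε hearts, against 41.1, 59.5, 39.8 and 25.4 CPM in wild type (-0.79 ± 0.239, adjusted p = 0.212). Dusp1, a phosphatase that switches off MAP kinases, differed by -0.85 ± 0.299 (adjusted p = 0.275). Without wild-type replicate 2 the difference was -0.21 for Egr3, against -1.54 with it, and -0.45 for Dusp1, and neither was called (adjusted p = 0.866 and 0.599). The same list had a median of -0.40 in unstressed hearts. Of 73 cytosolic ribosomal protein genes 61 lay below 0 with a median of -0.07, and without wild-type replicate 2 the median was -0.01. Of 20 circadian clock genes 15 lay above 0 with a median of 0.17, against -0.30 in unstressed hearts. Nr1d2, a clock repressor, had 45.0, 37.2, 36.8 and 33.0 CPM in PKCε hearts, against 21.9, 21.3, 31.3 and 31.8 CPM in wild type (0.52 ± 0.144, adjusted p = 0.174). The labels give no time of day for any library.

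**Figure D3:**
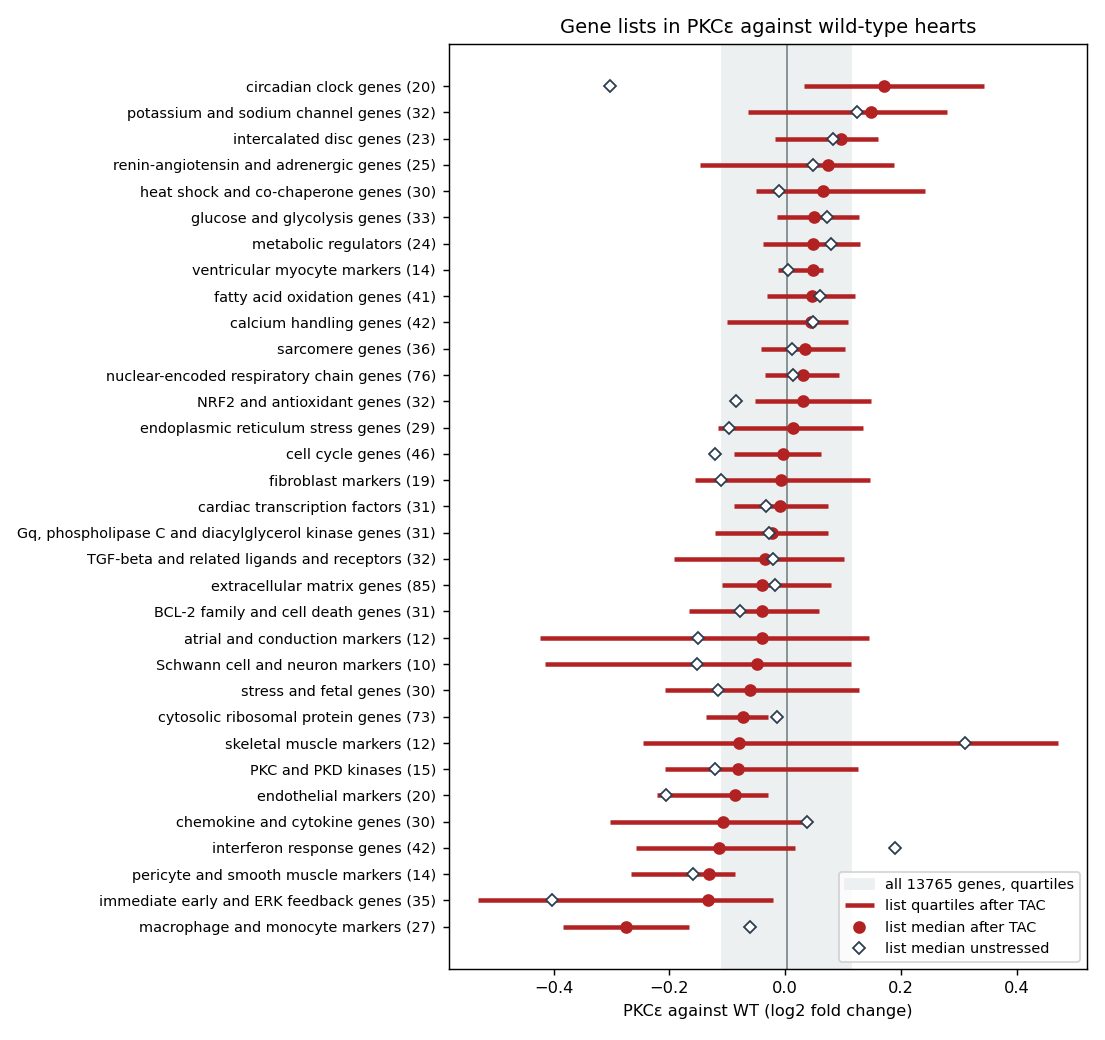
Median log2 fold change of PKCε over wild-type hearts for the lists with at least 10 tested genes (number in brackets, sex-linked transcripts left out). Red circles and bars are medians and quartiles after TAC, open diamonds the medians in unstressed hearts, and the shaded band the quartiles of all 13765 genes after TAC. The macrophage list lies lowest at -0.28 and the clock list highest at 0.17.

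The same genotypes differed in more genes without the operation. In unstressed hearts 413 genes were called (3.00%), 211 higher (1.53%) and 202 lower (1.47%) in PKCε hearts. After TAC, 162 of the 211 still lay above 0 (76.8%, against 50.7% of all genes) and 163 of the 202 below 0 (80.7%, against 49.3%). No library is shared between the 2 comparisons. The differences were smaller after TAC: the median of the 211 was 0.13 after TAC, against 0.61 unstressed, and the median of the 202 was -0.13, against -0.57. The second value of each pair comes from the contrast that chose the genes and is larger for that reason also. Of the 413, only Wdr92, Prkce and C1qa were called after TAC. Across all 13765 genes the log2 fold changes of the 2 conditions correlated with Pearson r = 0.334, a description across genes, which are not independent replicates and share the depth of their libraries.

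**Figure D4:**
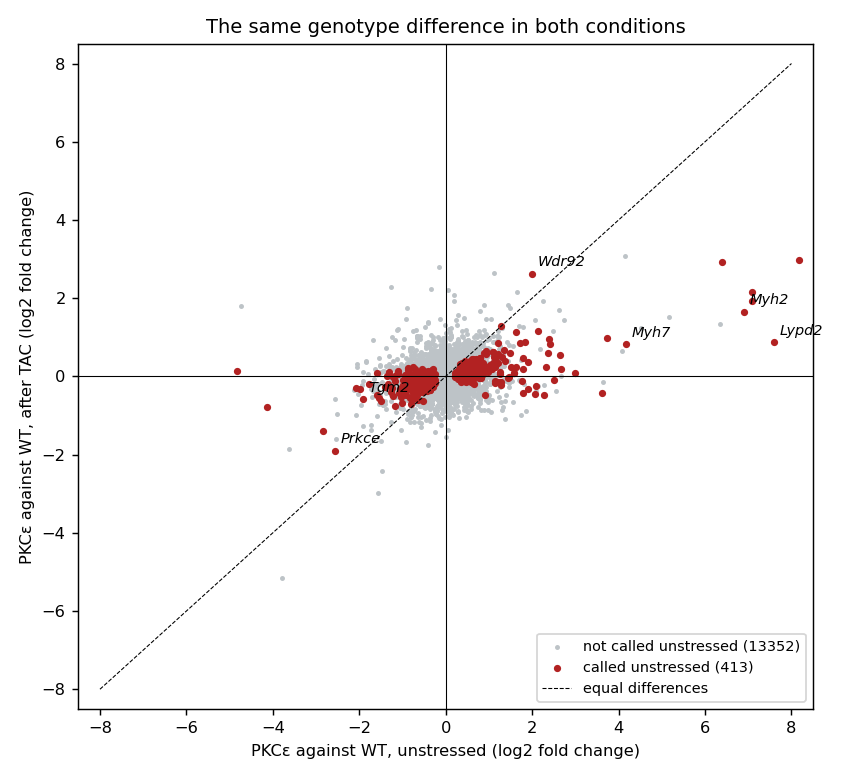
Log2 fold change of PKCε over wild-type hearts, unstressed (horizontal) and after TAC (vertical), for 13765 genes. Red points are the 413 genes called unstressed. Most lie nearer to 0 on the vertical axis than the dashed line of equal differences, while Wdr92 (2.0 unstressed, 2.63 after TAC) lies above it.

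For 5 genes the genotype difference itself differed between TAC and unstressed hearts (0.0363%), 1 higher (0.00726%) and 4 lower (0.0291%) in the TAC contrast minus the unstressed one. Myh7 had 3426, 4292 and 2373 CPM in unstressed PKCε hearts, against 193, 160, 204 and 194 CPM in unstressed wild type. Unstressed PKCε hearts thus lay within the range that both genotypes showed after TAC, and the difference fell by 3.34 ± 0.517 on the log2 scale (adjusted p = 0.00912). The call ended with only the compared groups in the fit (adjusted p = 0.0632) and with the replicate number as a block (adjusted p = 0.0574). Tgm2, a matrix-crosslinking transglutaminase of which 21.8% of exonic bases overlap other genes, had 450, 392.2, 280 and 355 CPM in PKCε TAC hearts, against 579, 463, 651 and 513 CPM in wild-type TAC hearts. It had 113, 120 and 124 CPM in unstressed PKCε hearts, against 468, 433, 414 and 469 CPM in unstressed wild type. Its PKCε libraries lay below wild type in both conditions, by -0.58 ± 0.139 after TAC (adjusted p = 0.109) and by -1.91 ± 0.161 unstressed, and the difference of 1.33 ± 0.208 was called (adjusted p = 0.00759).

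Heatr5b had a mean of 53.5 ± 5.05 CPM in PKCε TAC hearts and 53.9 ± 8.13 CPM in wild-type TAC hearts, and of 73.6 ± 5.35 CPM in PKCε and 42.9 ± 5.45 CPM in wild-type unstressed hearts (SD, n = 4, 4, 3 and 4; difference -0.79 ± 0.146, adjusted p = 0.0288). It lies on chromosome 17 within 20 Mb of Prkce. Lypd2 was at 0 in all unstressed wild-type libraries and had 60 counts in the 3 unstressed PKCε libraries together, at least 29.8-fold higher with a floor of 3 counts over the group. After TAC it was at 0.127 to 0.478 CPM in PKCε and 0.0696 to 0.268 CPM in wild-type hearts.

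Myh2, a fast myosin of skeletal muscle, was singled out after its values were seen. It had 4.70, 2.99, 18.1 and 9.40 CPM in PKCε TAC hearts, against 0.0671, 10.2, 0.259 and 0.279 CPM in wild-type TAC hearts. Wild-type replicate 2 lay among the PKCε libraries, and the other 3 wild-type libraries lay below them all. The change of its difference between TAC and unstressed hearts was not called (adjusted p = 0.361). Without wild-type replicate 2 the gene was called after TAC, at 5.37 (adjusted p = 0.0261), and 10 genes were called in all, 6 higher and 4 lower. Whether RNA from a PKCε heart reached this library was not tested. Its Prkce level lay between those of the other wild-type libraries and of the knockouts, and its Myh2 level lay among the knockouts.

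**Figure D5:**
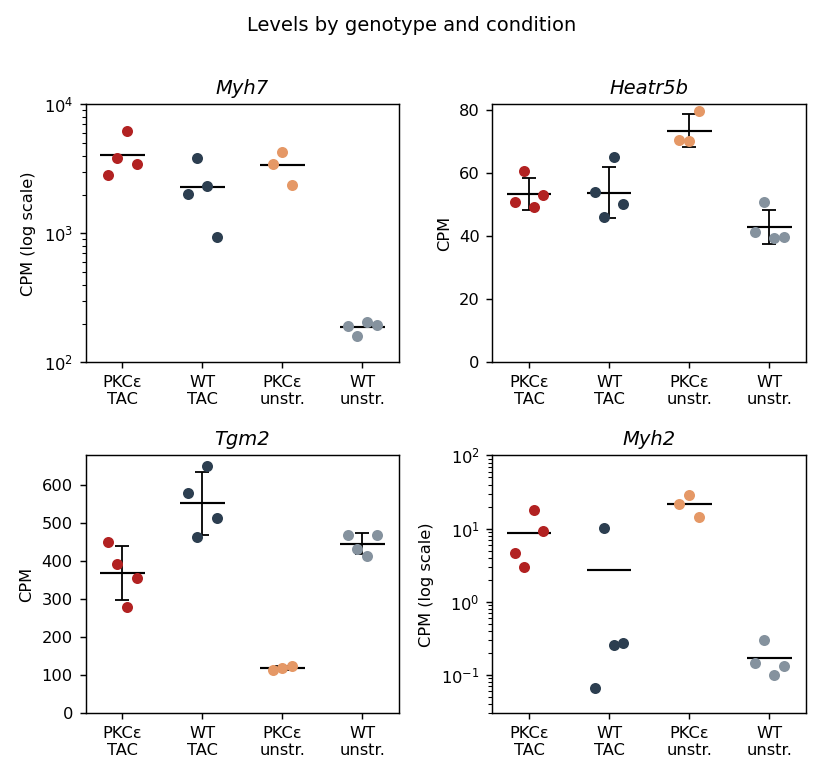
CPM per library of Myh7, Heatr5b, Tgm2 and Myh2, with PKCε to the left of wild type (WT) after TAC and then unstressed (unstr.). Points are libraries and bars the mean, with whiskers for the SD on linear axes. Myh7 and Myh2 are on log axes. In unstressed wild type Myh7 lies at 160 to 204 CPM, and in all other groups at 938 CPM or above.

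Genes near Prkce were examined because a germline knockout carries the chromosome segment around it. Within 5 Mb of Prkce 32 other genes were tested and 0 were called after TAC, with 6 higher and 2 lower at an unadjusted p below 0.05 (25%, against 11.3% of all genes). Within 20 Mb 95 genes were tested and 0 were called, with 9 higher and 3 lower at that p (12.6%). In unstressed hearts 6 of the 95 were called (6.32%, against 3.00%), among them Heatr5b and Slc8a1. Within 5 Mb Slc8a1 was the only one, 1 of the 32 (3.12%). Whether strain sequence around the gene differed was not tested.

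The loss of PKCε on top of PKCδ ablation gives the same contrast in other libraries, which entered the same model and so share its estimate of the spread. It called 5.27% of all genes after TAC and 23.9% unstressed. In combined over PKCδ-ablated hearts after TAC, Wdr92 had 106.7, 54.4, 78.4 and 133.8 CPM in combined hearts, against 17.3, 18.3 and 16.6 CPM in PKCδ hearts (2.42 ± 0.384, adjusted p = 0.00267). In unstressed hearts the same contrast ran the other way, with 57.8, 52.5, 38.0 and 45.5 CPM in combined hearts, against 135.6, 82.2 and 93.5 CPM in PKCδ hearts (-1.10 ± 0.342, adjusted p = 0.0237). Wdr92 thus did not follow Prkce in every pair of groups. C1qa differed by -0.07 ± 0.0811 after TAC (adjusted p = 0.698) and was higher in unstressed combined hearts (0.48 ± 0.0835, adjusted p = 0.000257). Pdgfrb differed by -0.21 ± 0.0738 after TAC (adjusted p = 0.0943) and was lower unstressed (-0.31 ± 0.0741, adjusted p = 0.00314). Tirap and 2610507I01Rik were not called after TAC, at 0.10 ± 0.125 and 0.56 ± 0.322. Unstressed, Tirap was called higher (0.33 ± 0.123, adjusted p = 0.0488) and 2610507I01Rik was not called (0.05 ± 0.321, adjusted p = 0.925). Tgm2 differed by 0.0017 ± 0.150 after TAC and -0.0007 ± 0.150 unstressed (adjusted p = 0.998 each). Myh7 was called after TAC (2.92 ± 0.417, adjusted p = 0.00267) and not unstressed (0.41 ± 0.385, adjusted p = 0.467). Heatr5b was called in neither condition (adjusted p = 0.58 and 0.0534). Lypd2 was called higher unstressed (adjusted p = 0.00111) and was not called after TAC (adjusted p = 0.511). Combined TAC replicate 2 held 31.5 CPM of Prkce, against 8.21 to 11 CPM in the other 3 combined TAC libraries, which goes against its label, and the TAC values of this contrast include it.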

How the data were processed

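Polyadenylated heart RNA was sequenced in 29 libraries of 8 groups. The authors deposited whole-number counts per gene, 1 file a library. The submitters' processing notes name the genome build mm10 and the tools TopHat2 2.0.10, Bowtie2, HTSeq, DESeq and edgeR, with no settings. Reads aligned to more than 1 place (10.97% to 14.16% in the 8 libraries) and reads on more than 1 gene (0.8654% to 0.9418%) were listed outside genes and left out here, so near-identical genes are undercounted.

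All 29 libraries entered 1 edgeR quasi-likelihood model (edgeR 4.0.16, limma 3.58.1, R 4.3.3) with group means, TMM normalization, robust dispersion and 21 residual degrees of freedom. A filter by group left 13765 genes, and Benjamini-Hochberg adjustment ran over all of them in each comparison. The comparison, the 39 gene lists and the rule for named genes were chosen with earlier results of these data known. The rule took 20 fixed genes, called genes (mean log2 CPM 2 or more, no overlap), the next by p to fill 5 per direction, up to 4 per list described, and called changes of the difference. The marker genes shown in full, 2610507I01Rik, Lypd2 and Myh2 were named beyond it, and some genes that the counts include are not reported here. Positions are RefSeq GRCm38.p6 (13715 of 13765 genes matched) and exon overlaps GENCODE vM21.

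Alternatives were another normalization (RLE), keeping low counts, DESeq2 1.42.0, the sex label as a term, male-labelled libraries alone, the compared groups alone, a replicate block and leaving out each library. Added after seeing the data were a Y-linked score as a term and leaving out both wild-type TAC replicate 2 and combined TAC replicate 2.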

Additional observations from a re-analysis of the deposited data

Results flagged for a closer look

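Libraries far from the rest of their group of 4 were looked for in the genes named, and chance alone marks about 1 group in 20. Wild-type TAC replicate 2 was the high library for Nppb (543 CPM), 2610507I01Rik (6.38 CPM), Myh2 (10.2 CPM) and Egr3 (23.2 CPM). Wild-type TAC replicate 3 was high for Col3a1 (1695 CPM) and C1qb (114 CPM), and replicate 4 for Atp2a2 (9114 CPM) and Gnpat (198.7 CPM). PKCε TAC replicate 4 was high for Smad2 (16.4 CPM) and Sln (0.0797 CPM, a single count) and low for Fbln1 (94.4 CPM), and PKCε TAC replicate 3 was low for Prkd2 (42.1 CPM).

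The PKCε over wild-type difference was unequal between TAC and unstressed hearts, by the test of the change itself, in 5 genes. The TAC contrast minus the unstressed one was -3.34 for Myh7, -0.79 for Heatr5b and 1.33 for Tgm2 on the log2 scale. For Lypd2 the fitted value of -6.73 depends on the prior count, since unstressed wild type held no count, and it is no bound. With only the compared groups in the fit, Myh7, Heatr5b and Lypd2 lost the call (adjusted p = 0.0632, 0.0589 and 0.0589), and with the replicate number as a block Myh7 and Lypd2 did (adjusted p = 0.0574 and 0.0718). Lypd2 also lost it with the sex label as a term (adjusted p = 0.0502). With 1 library left out, Heatr5b and Lypd2 lost the call in some fits, and Lypd2 had an adjusted p of 0.0569 without wild-type TAC replicate 2.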

How the results depend on the processing

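The count of 6 genes called after TAC was 6 with RLE normalization and without the filter on low counts, and 7 with the sex label as a term. It was 54 with DESeq2, 46 with male-labelled libraries alone, 2 with the 2 groups alone, 14 with a Y-linked score as a term and 24 without both wild-type TAC replicate 2 and combined TAC replicate 2. Leaving out 1 library gave 2 to 12, with 2 without wild-type TAC replicate 1, 10 without wild-type TAC replicate 2, 12 without PKCε TAC replicate 1, and 3 without PKCε TAC replicate 2 or 4. The direction of each of the 6 genes held under all settings. Their calls did not. Of 9 settings other than leaving out 1 library, Prkce, Wdr92 and Tirap were called in 8 each. C1qa was called in 7 of the 9, 2610507I01Rik in 6 and Pdgfrb in 5. The change of the difference, called in 5 genes, was called in 52 with DESeq2, 15 with the Y-linked score, 8 without both replicates 2, and 3 to 26 with 1 library left out. It was 3 without PKCε TAC replicate 1 or 3, without unstressed PKCε replicate 1 or without unstressed wild-type replicate 1 or 4, and 13, 20 and 26 without unstressed wild-type replicate 3, unstressed PKCε replicate 3 and unstressed wild-type replicate 2. The 413 genes called in unstressed hearts became 112 to 506, with 112 and 155 without unstressed PKCε replicates 1 and 2 and 154 and 214 without unstressed wild-type replicates 1 and 4. Near Prkce 0 genes were called under every setting except male-labelled libraries alone (2). The cause of these moves was not tested, apart from smaller fits having fewer samples.

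With the replicate number as a block, 3 genes were called after TAC, 317 unstressed and 14 for the change of the difference, and Prkce was at an adjusted p of 0.0701. The numbers do not pair the samples: same-numbered TAC libraries correlated at 0.15, -0.121, -0.0301 and 0.125 in their deviations from the group means.

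Signs of some genes near 0 turned. Pdk4 was at 0.0253 with the sex label, Heatr5b after TAC at 0.0022 with the replicate block and Ryr2 at -0.00076 without both replicates 2. With 1 library left out, Nppa ranged from -0.12 to 0.71, Col1a1 from -0.23 to 0.12, Col3a1 from -0.25 to 0.30, Ctgf from -0.10 to 0.33, Pdk4 from -0.58 to 0.22 and Heatr5b after TAC from -0.076 to 0.096. With 4 libraries a group and a median SE of 0.125, small differences were not detectable, and low genes such as Sln and Lypd2 rest on few counts.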

Other observations

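Among the lists not described above, interferon response genes had a median of -0.11 in PKCε over wild-type hearts after TAC, with 29 of 42 below 0, and one of 0.19 unstressed. At an unadjusted p below 0.05 there were 3 lower and 0 higher after TAC (against 4.98% and 6.30% of all genes), and 0 were called. Of 31 cardiac transcription factors 5 were lower and 1 higher at that p. Runx1, a factor that re-appears in injured cardiomyocytes, had 3.62, 2.94, 4.00 and 2.71 CPM in PKCε TAC hearts, against 4.36, 5.23, 6.99 and 4.73 CPM in wild-type TAC hearts. Its groups did not overlap, and it was not called (-0.68 ± 0.182, adjusted p = 0.147). Tbx3, a factor of the conduction system, had 17.0, 18.7, 18.7 and 16.9 CPM in PKCε hearts, against 22.3, 19.9, 22.9 and 26.7 CPM in wild type, also without overlap (-0.36 ± 0.101, adjusted p = 0.166). Cenpf, a kinetochore protein, lay higher at 0.62 ± 0.164 (adjusted p = 0.147), while 46 cell cycle genes had a median of -0.004.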
